A study of Mus musculus with 4 samples.

Results

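The genes described here encode the NADPH oxidase of phagocytes and proteins that work with it: Cybb, Cyba, Ncf1, Ncf4, Rac1, Rac2 and Hvcn1. They were taken by name, from probe sets with exactly 1 gene symbol in the platform annotation. All 7 genes were found, each with 1 probe set, so the set comprised 7 of the 39720 probe sets tested. The arrays measured mouse Ly6C-high bone marrow monocytes, sorted by flow cytometry after kit enrichment, from the pooled marrow of 3 mice. The culture medium of all 4 samples held GM-CSF (20 ng per ml) and interleukin 4 (20 ng per ml), cytokines that push monocytes toward dendritic cells. From the start, 2 samples also received all-trans retinoic acid at 100 nM and 2 received the solvent DMSO, and RNA was taken after 24 h. Strain, age and sex of the mice were not given in the sources used here. The labels do not say whether samples with the same treatment were separate cultures, so the p-values measure only the spread between these arrays, which may be technical.

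The phagocyte oxidase moves electrons from NADPH in the cytosol across a membrane to oxygen and makes superoxide inside the phagosome or outside the cell. At rest its membrane part, the heterodimer of gp91phox (Cybb, also called NOX2) and p22phox (Cyba), lies apart from a cytosolic complex that includes p47phox (Ncf1) and p40phox (Ncf4). On stimulation p47phox is phosphorylated, the cytosolic subunits and a Rac GTPase join the membrane part, and electron flow begins. The voltage-gated proton channel Hvcn1 carries protons that balance the charge moved. In dendritic cells the oxidase also affects the pH of phagosomes and so the processing of antigen.

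Of the 7 genes, Ncf1 rose with retinoic acid, 1.65-fold, and the other 6 did not pass the test (limma, adjusted p under 0.05). Of the membrane subunit genes, neither of which passed, Cybb differed by 0.45 and Cyba by -0.064 on the log2 scale. Rac1 was lower by 0.25 on the log2 scale without passing, and Ncf4, Rac2 and Hvcn1 differed by less than 0.05. Over all probe sets tested, 2.09% passed in either direction and 0.904% passed as higher. The median difference of the 7 genes was 0.022, beside 0.0087 over the 22180 genes with a named probe set.

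**Figure D1:**
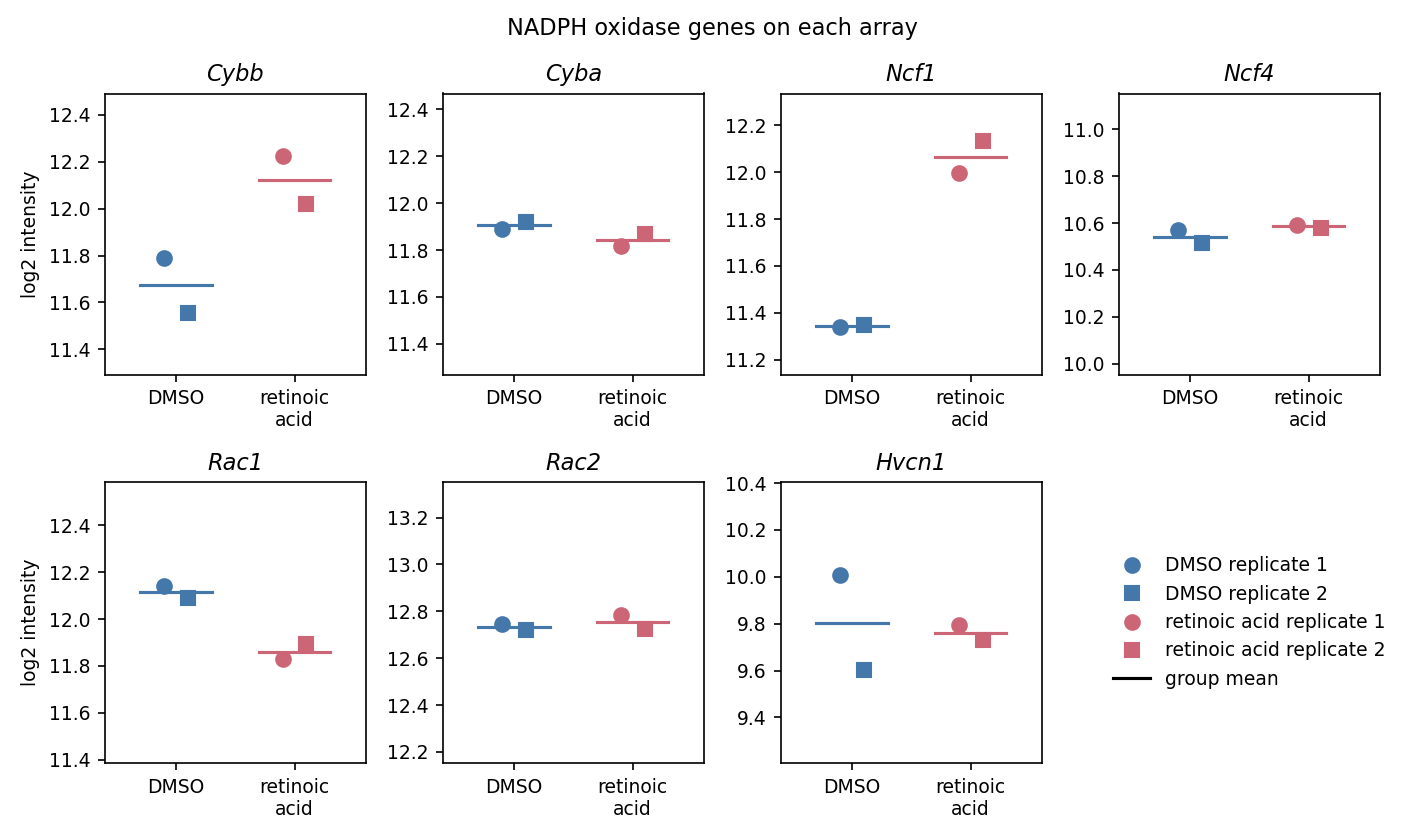
Log2 intensity of each of the 7 genes (1 panel per gene, each axis spanning the same range of 1.2 log2 units) on the 2 DMSO arrays (blue) and the 2 retinoic acid arrays (red), with circles for replicate 1, squares for replicate 2 and lines for group means. The retinoic acid arrays lie above the DMSO arrays for Ncf1 (12.00 and 12.13 against 11.34 and 11.35) and Cybb, and below them for Rac1.

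Ncf1 encodes p47phox, the organiser subunit whose phosphorylation starts assembly. Its probe set (17453288) read 11.34 and 11.35 (log2 intensity) on DMSO replicates 1 and 2, and 12.00 and 12.13 on retinoic acid replicates 1 and 2. The groups did not overlap, and the gap between them was several times the distance between replicates. Group means were 11.34 ± 0.0073 with DMSO and 12.07 ± 0.095 with retinoic acid (SD, n = 2). The log2 difference was 0.72 ± 0.087 (SE; 95% interval 0.50 to 0.95; limma adjusted p = 0.0334), or 64.9% more on the linear scale. The call did not hold when any 1 array was left out: limma's adjusted p became 0.197 or 0.217 on dropping the first or the second DMSO array, and 0.121 or 0.161 on dropping the first or the second array of retinoic acid, while the difference stayed between 0.65 and 0.79. It was also lost when 1625 probe sets with a constant value were kept in the fit (adjusted p = 0.0973).

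Cybb encodes gp91phox, the catalytic subunit that holds the haem and flavin groups. Its probe set (17540154) read 11.79 and 11.56 (log2 intensity) on DMSO replicates 1 and 2, and 12.23 and 12.02 on retinoic acid replicates 1 and 2. Both retinoic acid arrays lay above both DMSO arrays, and in each group replicate 1 was the higher one. The log2 difference of 0.45 ± 0.13 (SE; 95% interval 0.12 to 0.78), a ratio of 1.37, did not pass (limma adjusted p = 0.227). The interval, which is not adjusted for the number of probe sets, lies above 0.

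Cyba encodes p22phox, the partner that gp91phox needs to be stable and the docking site for p47phox. It read 11.89 and 11.92 (log2 intensity) on DMSO replicates 1 and 2, and 11.82 and 11.87 on retinoic acid replicates 1 and 2 (probe set 17513672). The 4 arrays lay close together, with those of retinoic acid slightly lower and no overlap. The log2 difference was -0.064 ± 0.077 (SE; 95% interval -0.27 to 0.14; limma adjusted p = 0.796).

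Promoter sequence is shown for these 3 genes, the ones that the RefSeq promoter table (build GRCm38.p6) matched among the 7. They include the gene that passed and the membrane pair. Each run holds the 250 bases before the start that the table gives, 5′ to 3′. The Cybb window lies inside the extent that the RefSeq gene table gives for Cybb. Capitals mark matches to the motifs named after the sequences.
Ncf1 (chr5:134229626-134229875, minus strand): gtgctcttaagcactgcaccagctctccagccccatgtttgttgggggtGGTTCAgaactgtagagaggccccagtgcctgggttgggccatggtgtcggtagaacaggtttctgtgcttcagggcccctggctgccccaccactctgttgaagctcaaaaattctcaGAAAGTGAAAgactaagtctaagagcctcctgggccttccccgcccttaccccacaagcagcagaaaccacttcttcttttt
Cybb (chrX:9469325-9469574, minus strand): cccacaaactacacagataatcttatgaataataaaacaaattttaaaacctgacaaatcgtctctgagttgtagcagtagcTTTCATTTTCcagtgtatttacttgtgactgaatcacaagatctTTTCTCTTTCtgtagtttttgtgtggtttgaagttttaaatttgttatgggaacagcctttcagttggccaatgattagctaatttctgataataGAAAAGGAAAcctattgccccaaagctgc
Cyba (chr8:122432941-122433190, minus strand): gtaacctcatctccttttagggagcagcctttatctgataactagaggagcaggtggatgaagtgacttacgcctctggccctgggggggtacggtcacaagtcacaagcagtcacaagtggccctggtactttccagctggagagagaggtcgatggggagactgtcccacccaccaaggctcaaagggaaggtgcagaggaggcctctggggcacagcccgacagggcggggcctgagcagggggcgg

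Motifs were chosen with these sequences in view and searched on both strands. The repeat GAAANNGAAA, bound by interferon regulatory factors, occurred 1 time in Ncf1, 82 to 73 bases before the start, and 3 times in Cybb, the nearest 29 to 20 bases before the start. The same letters were not found in the Cyba window, and 2.98% of the 32851 promoter windows of this length held them. The retinoid receptor half-site GGTTCA occurred 1 time in Ncf1, 201 to 196 bases before the start, and in 8.85% of all windows. The half-site variant AGGTCA, held by 14% of all windows, was not found in these 3. The variants AGTTCA, held by 11.8% of all windows, and the variant GGGTCA, held by 11.6%, were not found in them either. The direct repeat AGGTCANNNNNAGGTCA, which overlaps with AGGTCA by construction and was held by 0.00913% of all windows, was also not found. GAGGAA, a sequence that PU.1 can bind, was not found in these windows either and occurred in 23.3% of all. Other forms of the PU.1 site were not searched, so these windows are not shown to lack one. GC content was 34% in the Cybb window, 60% in Cyba and 54.4% in Ncf1. A match describes letters only and shows no binding.

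Ncf4 encodes p40phox, which binds phosphatidylinositol 3-phosphate on phagosomes. Its probe set (17312700) read 10.57 and 10.51 (log2 intensity) on DMSO replicates 1 and 2, and 10.59 and 10.58 on retinoic acid replicates 1 and 2. Both retinoic acid values were the higher ones, and the distance between group means was less than that between the DMSO arrays. The log2 difference was 0.045 ± 0.077 (SE; 95% interval -0.16 to 0.25; limma adjusted p = 0.866).

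Rac2 is the Rac GTPase of blood cells, and Rac1 its widely expressed relative; either can activate the oxidase, which uses mainly Rac2 in neutrophils. Rac1 (probe set 17454865) read 12.14 and 12.09 (log2 intensity) on DMSO replicates 1 and 2, and 11.83 and 11.89 on retinoic acid replicates 1 and 2. The retinoic acid arrays lay below the DMSO arrays without overlap. The log2 difference was -0.25 ± 0.079 (SE; 95% interval -0.46 to -0.047), which did not pass (limma adjusted p = 0.273).

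Rac2 (probe set 17319037) read 12.75 and 12.72 on DMSO replicates 1 and 2, and 12.78 and 12.73 on retinoic acid replicates 1 and 2 (log2 intensity). The groups overlapped. The log2 difference was 0.022 ± 0.078 (SE; 95% interval -0.18 to 0.23; limma adjusted p = 0.944). Rac1 and Rac2 are similar in sequence, and whether their probes share targets was not tested.

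Hvcn1, the proton channel, read 10.01 and 9.60 (log2 intensity) on DMSO replicates 1 and 2, and 9.80 and 9.73 on retinoic acid replicates 1 and 2 (probe set 17442046). Both retinoic acid values lay between the DMSO values. Hvcn1 had the widest spread of the 7 genes within a group, an SD of 0.29 with DMSO. The log2 difference of -0.042 ± 0.15 (SE; 95% interval -0.44 to 0.36; limma adjusted p = 0.947) has the widest interval of the 7.

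**Figure D2:**
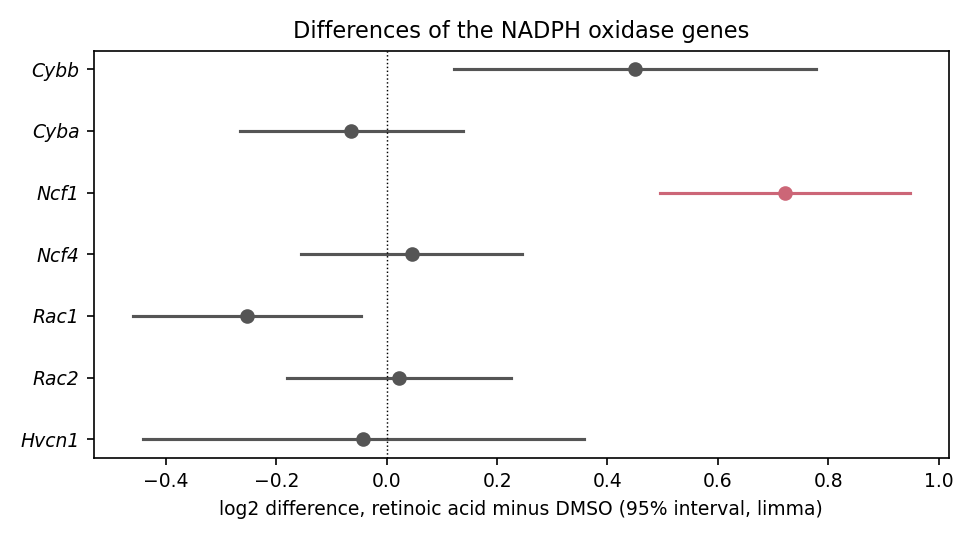
Log2 difference of each gene, retinoic acid minus DMSO (horizontal axis), with limma's 95% interval as a line; red marks an adjusted p under 0.05. The intervals of Ncf1 (0.50 to 0.95) and Cybb (0.12 to 0.78) lie above 0 and that of Rac1 below it, and only Ncf1 passed after adjustment over all probe sets.

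The arrays of the treatments did not overlap for 5 of the 7 genes: Cybb, Ncf1 and Ncf4 were higher with retinoic acid, and Cyba and Rac1 lower. Over all probe sets tested, 44% did not overlap, 20.7% with retinoic acid higher and 23.3% with it lower, and the count over 7 genes is given as a description. At an unadjusted limma p under 0.05, 3 of the 7 genes passed (Ncf1, Cybb and Rac1), beside 13.4% of all probe sets.

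Partners were compared within each array, as the log2 value of one gene minus that of the other. The starting offset of such a difference depends on the probes and has no meaning, so only its shift between treatments is read. Cyba minus Cybb was 0.098 and 0.36 on DMSO replicates 1 and 2, and -0.41 and -0.15 on retinoic acid replicates 1 and 2, a shift of -0.51. Ncf4 minus Ncf1 went from -0.77 and -0.84 to -1.41 and -1.55, a shift of -0.68. Rac2 minus Rac1 went from 0.61 and 0.63 to 0.95 and 0.83, a shift of 0.28. In each of the 3 pairs the treatments did not overlap, beside 44% of single probe sets. The share over all gene pairs was not computed, and each shift is made of the single-gene differences given above. An exact two-sided permutation test gave p = 0.333 for each pair, also after Benjamini-Hochberg adjustment over 3, which is the smallest p that 2 arrays against 2 allow, so unequal change of the partners was not shown.

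**Figure D3:**
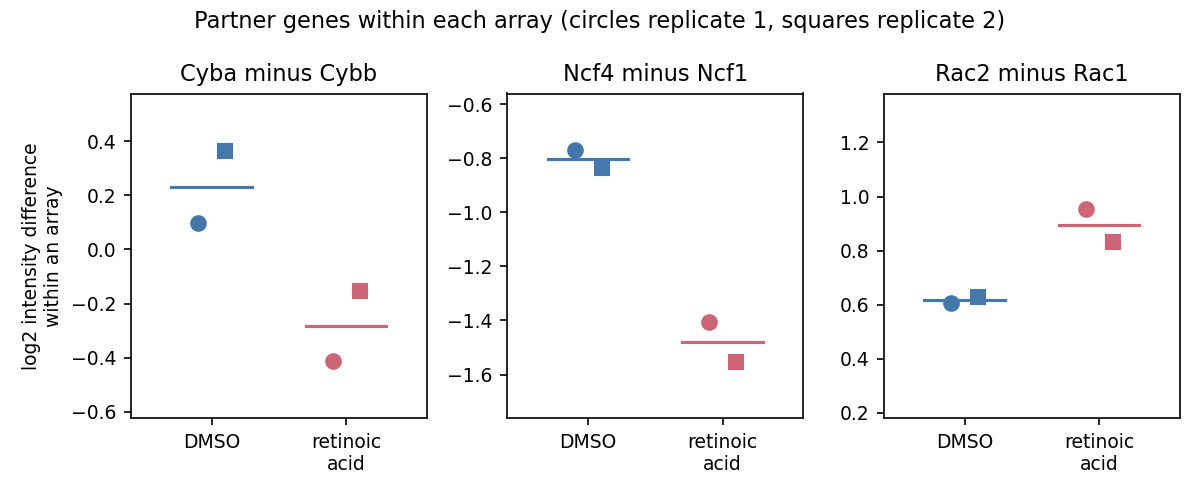
Difference of log2 intensity between partner genes within each array (vertical axis, every panel spanning 1.2 log2 units) for DMSO (blue) and retinoic acid (red), with lines for group means. The shift is -0.51 for Cyba minus Cybb, -0.68 for Ncf4 minus Ncf1 and 0.28 for Rac2 minus Rac1.

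The genes whose profile over the 4 arrays lay closest to that of Ncf1 were Slc7a8, an amino acid transporter, Eif4g3, a translation initiation factor, and Slc9a3r2, a scaffold protein. Closeness was the root mean square difference of mean-centred log2 values among 12771 other genes with a mean above the dim level. This level, 6.35, is the 95th percentile of the mean level among 1405 probe sets for olfactory or vomeronasal receptors, which belong to sensory neurons of the nose, and serves as a guide to background. The distances were 0.014, 0.016 and 0.016, and the 3 genes differed between treatments by 0.75, 0.75 and 0.73. Differences like that of Ncf1 follow from this selection, and shared control of these genes was not tested.

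The other genes of the pathway were taken in 8 lists of 116 gene symbols, of which 102 had a named probe set. Among these 7 rose, 7 fell and 88 did not pass. Over the whole table, unnamed probe sets included, 2.09% passed. Of all 22180 genes, 284 rose and 397 fell. Of the 12445 genes above the dim level in both groups, 255 rose and 363 fell. At an unadjusted limma p under 0.05, 43 of the 102 related genes passed, beside 13.4% of all probe sets. The unadjusted counts of each list are given below. Where a gene had several probe sets, the brightest over the 4 arrays stands for it.

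Of 8 measured relatives and helpers of the oxidase, 0 rose and 0 fell (limma, adjusted p under 0.05; 0 at an unadjusted p under 0.05), with a median log2 difference of 0.038. Nox1, Nox3, Nox4, Duox1, Duox2 and Duoxa1, which belong to oxidases of other tissues, lay under the dim level in both groups, so their values do not show whether they responded. Noxa1, an activator of some of these oxidases, was close to that level (6.38 with DMSO and 6.43 with retinoic acid). Cybc1, a chaperone needed for the gp91phox and p22phox dimer, was the one member well above it. It read 8.82 and 8.58 (log2 intensity) on DMSO replicates 1 and 2, and 8.95 and 8.80 on retinoic acid replicates 1 and 2. The Cybc1 groups overlapped, with a log2 difference of 0.17 ± 0.12 (SE; 95% interval -0.14 to 0.49; adjusted p = 0.625).

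Kinases and lipid signals upstream of assembly moved in both directions: 3 of the 18 with a probe set rose, 1 fell and 14 missed the threshold, with a median of 0.020. Unadjusted (limma p under 0.05), 3 were higher and 4 lower, beside 13.4% of all probe sets in either direction. Prkcb, a protein kinase C that phosphorylates p47phox, read 9.29 and 9.06 on DMSO replicates 1 and 2, and 10.73 on both retinoic acid arrays (log2 intensity), a 2.94-fold rise (limma adjusted p = 0.00912). Prkca, its close relative, rose 2.37-fold (adjusted p = 0.0235), with 6.97 and 7.29 on the DMSO arrays against 8.39 and 8.35. Pla2g4a, the cytosolic phospholipase that releases arachidonic acid, rose 1.85-fold (adjusted p = 0.0167). Pik3cg, the phosphoinositide 3-kinase coupled to chemoattractant receptors, was 1.57-fold lower (adjusted p = 0.0325). Each of these 4 calls was lost whichever array was left out.

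Of 15 Rac activators, 0 rose and 2 fell (limma, adjusted p under 0.05), with a median of -0.089. At an unadjusted limma p under 0.05, 2 were higher and 6 lower. Over all probe sets, 1.19% passed as lower, and 13.4% passed unadjusted in either direction. Tiam1, an exchange factor that loads Rac with GTP, read 10.76 and 10.62 on DMSO replicates 1 and 2, and 9.40 and 9.43 on retinoic acid replicates 1 and 2 (log2 intensity), and was 2.42-fold lower (limma adjusted p = 0.00967). Vav3, an exchange factor of the Vav family, was 2.12-fold lower (adjusted p = 0.0126), with 9.67 and 9.78 on the DMSO arrays against 8.66 and 8.62. The calls of Tiam1 and Vav3 were lost whichever array was left out. Of 11 measured Rac inhibitors, 0 rose and 0 fell (limma; 2 higher and 1 lower at an unadjusted p under 0.05), with a median of 0.027.

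**Figure D4:**
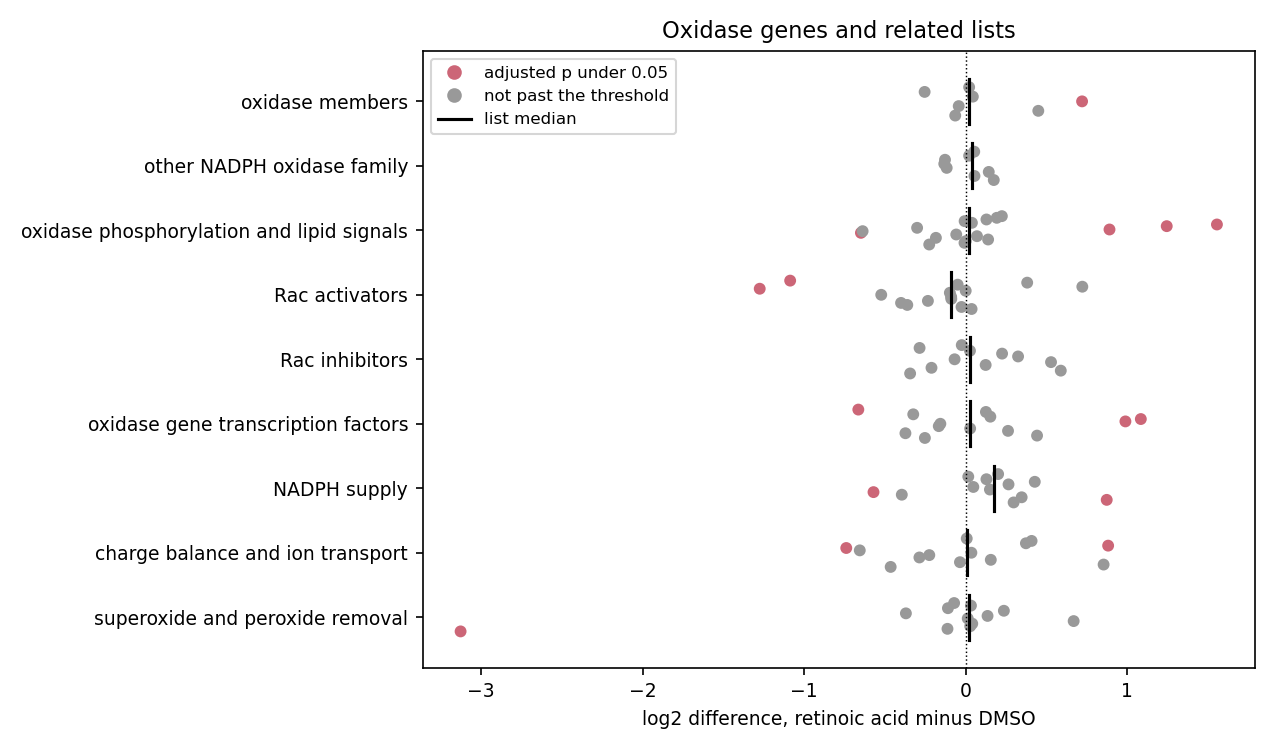
Log2 difference, retinoic acid minus DMSO (horizontal axis), of each measured gene in the oxidase set and the 8 related lists; red points passed limma's adjusted p under 0.05, grey points did not, and black bars are list medians. The medians lie between -0.089 (Rac activators) and 0.18 (NADPH supply), with the widest single value at Aqp3.

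Transcription factors known to act on oxidase genes also moved both ways: of 13 measured, 2 rose, 1 fell and 10 did not pass, with a median of 0.028. Unadjusted (limma p under 0.05), 4 were higher and 2 lower, beside 13.4% of all probe sets in either direction. Spi1 encodes PU.1, an activator of Cybb and Ncf1 in myeloid cells. It read 10.61 and 10.75 (log2 intensity) on DMSO replicates 1 and 2, and 10.02 and 10.01 on retinoic acid replicates 1 and 2, and was 1.58-fold lower (limma adjusted p = 0.0438). Irf8, a partner of PU.1, rose 2.12-fold as read by the brighter of its probe sets (adjusted p = 0.0200), from 7.16 and 7.37 to 8.30 and 8.40. The other probe set of Irf8, too dim in both groups to tell, gave a difference of 0.13 ± 0.10 (SE; adjusted p = 0.658). Irf1, another interferon regulatory factor, rose 1.99-fold (adjusted p = 0.0140). Each of these 3 calls was lost whichever array was left out.

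Among 12 genes for NADPH supply there was 1 that rose and 1 that fell, and 10 missed the threshold, with a median of 0.18. Unadjusted (limma p under 0.05), 5 were higher and 2 lower. Over all probe sets, 2.09% passed in either direction, and 13.4% passed unadjusted. Idh1, the cytosolic isocitrate dehydrogenase that makes NADPH, rose 1.83-fold (limma adjusted p = 0.0262), from 10.32 and 10.47 to 11.32 and 11.22 (log2 intensity). Me2, a mitochondrial malic enzyme that uses mainly NAD, was 1.48-fold lower (adjusted p = 0.0448). Of 13 genes for charge balance and ion transport, 1 rose and 1 fell, with a median of 0.0072. Unadjusted (limma p under 0.05), 4 of the 13 were higher and 5 lower. Slc9a9, an endosomal sodium and proton exchanger, rose 1.84-fold (adjusted p = 0.0344), and Kcnn4, a calcium-activated potassium channel, was 1.67-fold lower (adjusted p = 0.0249). These 4 calls, too, were lost whichever array was left out.

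Of 12 measured genes for removal of superoxide and peroxide, 0 rose and 1 fell (limma; 1 higher and 2 lower at an unadjusted p under 0.05), with a median of 0.021. The member that fell was Aqp3, a channel for water, glycerol and hydrogen peroxide and not an enzyme. It read 10.16 and 10.25 on DMSO replicates 1 and 2, and 7.04 and 7.11 on retinoic acid replicates 1 and 2 (log2 intensity), 8.74-fold lower (limma adjusted p = 0.00192). Aqp3 was the one gene of the 8 lists that passed whichever array was left out.

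Phagocyte oxidase genes are also high in neutrophils, so markers of other marrow cells are given beside them. Of 15 neutrophil marker genes, 13 lay above the dim level in both groups, and Ly6g, the marker that defines mature neutrophils, lay at it (6.33 with DMSO, 6.42 with retinoic acid). Summed over the list, intensity came to 22000 and 22300 with DMSO, against 22800 and 21700 with retinoic acid, and the groups overlapped. A sum is set mainly by the brightest genes of a list. Of the 15, Retnlg (2.09-fold, under the dim level) and Mmp9 (2.01-fold) rose, and the chemokine receptor Cxcr2 was 2.22-fold lower (limma adjusted p = 0.0227, 0.0494 and 0.0167), with a median of -0.065. Unadjusted (limma p under 0.05), 3 were higher and 1 lower. Over all probe sets, 2.09% passed in either direction, and 13.4% passed unadjusted. In bulk RNA, fewer cells of a type and less RNA per cell cannot be told apart. Whether the RNA of these markers came from neutrophils or from the sorted monocytes themselves was not tested.

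Markers of the sorted cells were present: Ly6c2, which encodes Ly6C, lay at 11.91 with DMSO and 11.72 with retinoic acid, Ccr2 at 11.69 and 11.35, and Csf1r at 11.87 and 11.86 (mean log2 intensity). Of 9 measured monocyte markers 0 rose and 1 fell (limma; 3 higher and 2 lower at an unadjusted p under 0.05), the coagulation factor gene F13a1 (3.99-fold lower, limma adjusted p = 0.00431), whose level with retinoic acid was under 6.35. Itgam, Fcgr1, Cd14, Lyz2 and Cx3cr1 were higher by 0.66, 0.60, 0.29, 0.24 and 0.16 on the log2 scale, without passing. Summed over the 9 markers, intensity was 23000 and 24400 with DMSO, and 27100 and 26000 with retinoic acid, with no overlap. The brightest of them with retinoic acid, Lyz2 and Itgam, weigh most in that sum. Most B cell (6 of 8) and T and NK cell markers (6 of 8) lay under the dim level in both groups, as did 5 of 10 eosinophil and basophil, 3 of 7 plasmacytoid dendritic cell and 1 of 5 red cell and platelet markers. Of these lists Cd79b (1.57-fold) and Siglecf (1.52-fold) rose (limma adjusted p = 0.0471 and 0.0488), beside 0.904% of all probe sets that passed as higher. Of 14 stress and immediate early genes, 0 rose and 3 fell (limma, adjusted p under 0.05), namely Dusp1, Ier3 and Junb, with a median of -0.22. At an unadjusted limma p under 0.05, 0 were higher and 5 lower, beside 13.4% of all probe sets in either direction. Of the calls in this list and the marker lists, that of F13a1 held without DMSO replicate 2 (adjusted p = 0.0491) and each of the others was lost whichever array was left out. The part of these genes in the result for Ncf1 was not tested.

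For the whole table, array medians lay between 80.0 and 81.8 on the linear scale, and the lowest correlation of log2 values across probe sets was 0.9931 between replicates and 0.9841 between arrays of different treatment. Retinoic acid raised 359 probe sets and lowered 472 of 39720 (limma, adjusted p under 0.05). As a check of the labels, 6 of 6 genes known to respond to retinoic acid were higher (limma, adjusted p under 0.05). They were picked with earlier results of these arrays known, and 2 of them, Cyp26a1 and Rarb, lay under the dim level with DMSO.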

How the data were processed

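The deposited values are intensities on a linear scale, 1 for each array and probe set, made per the submitters' processing notes with RMA (background correction, quantile normalization and probe summary) in Affymetrix Expression Console; tool versions and the genome build are not given in the sources used here. RMA understates differences of dim genes. Biotin-labelled cDNA came from 250 ng of RNA. Values were transformed to log2 without further normalization. The table held 41345 probe sets, 23521 with 1 symbol, 1814 with several and 16010 unnamed here. The 1625 probe sets with 1 value on all 4 arrays were left out.

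Retinoic acid was compared with DMSO on 4 arrays by limma 3.58.1 in R 4.3.3 (lmFit and eBayes, two-sided, no covariates), adjusted by Benjamini-Hochberg over 39720 probe sets. The steps were also run on simulated data. The changes planted there were larger than that of Ncf1, so the run does not show how changes of its size are recovered. The number of arrays limits precision. Members, lists, motifs and the treatment of constant probe sets were chosen with earlier results of these data known. Named genes are all members and oxidase relatives, list genes that passed (at most 6 a list) and the 3 nearest to each member that passed. The measured monocyte markers and Ly6g were named as defining markers. Alternatives were other filters, normalizations, variance models, an offset of 16, replicate blocks and leaving out each array. The probe sets of a gene were also averaged. Some related genes are not reported here.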

Additional observations from a re-analysis of the deposited data

How the results depend on the processing

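Keeping the constant probe sets gave 0 calls by limma over the table (smallest adjusted p = 0.0535; 6260 probe sets at an unadjusted p under 0.05), 0 of the 7 oxidase genes (3 unadjusted) and 0 related genes (51 unadjusted); limma's prior degrees of freedom were then 0.898 in place of 2.76. Testing only probe sets with 1 symbol gave 1636 calls, with Ncf1 at an adjusted p of 0.00369 and 27 related genes in place of 14, and averaging the probe sets of a gene, which also limits the test to named genes, gave 29 related genes. Same-numbered arrays deviated from their group means with a correlation of -0.25, so the numbers are not shown to pair the samples. With the replicate block, limma called 161 probe sets in place of 831, 0 oxidase genes (Ncf1 adjusted p = 0.128; 2 genes at an unadjusted p under 0.05) and 1 related gene. A crossed replicate block, added after seeing the data, gave 457, 0 and 8 calls. Without any 1 array, 25 to 58 probe sets, 0 oxidase genes (1 to 2 unadjusted) and 1 related gene passed. The cause of these losses was not tested. The replicate blocks and the fits without an array both left fewer residual degrees of freedom, and only the latter had fewer samples.

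Of the 14 alternatives counted for the oxidase genes, 7 change only the error or the probe sets tested and cannot move a difference. The mean over probe sets is not among the 14. In the other 7, Ncf1, Cybb, Cyba, Ncf4 and Rac1 kept their direction. Over all 14, Ncf1 passed in 7, with adjusted p from 0.00369 to 0.217, and Cybb, Cyba, Ncf4 and Rac1 in 0, Cybb with adjusted p from 0.0758 to 0.651. Without any 1 array, Hvcn1 ranged from -0.25 to 0.16, turning without DMSO replicate 1, and Rac2 from -0.0075 to 0.052, turning without retinoic acid replicate 1. The shifts between partners kept their direction with the offset and without any 1 array, between -0.65 and -0.38 for Cyba minus Cybb in the latter. The block and the mean over probe sets cannot change them.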
